A study of Caenorhabditis elegans with 6 samples.

Results

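The mitochondrial respiratory chain and ATP synthase were followed in the transcriptome of whole C. elegans cultivated at 25°C or at 15°C. Members were chosen by gene name (nuo-, cox-, cco-, atp-, asb-, asg-, cyc-, ucr-, sdha-, sdhb- or sdhd- followed by a digit, and gas-1, isp-1, mev-1 and lpd-5), which found 35 of the 16391 rows of the expression table. Of these, 31 encode subunits or the mobile carrier cytochrome c. The other 4 (cox-10, cox-14, cox-15 and cox-19) share the cox name but encode factors that help to assemble complex IV, so they are described apart from the subunits. By complex, 6 members belong to complex I, 5 to complex II, 5 to complex III, 2 to cytochrome c, 10 to complex IV and 7 to complex V. Genes of the chain that are not named here, among them nuo-2, isp-1, atp-3, asb-1 and the genes of the mitochondrial genome, were not analysed here.

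The worms were of the wild-type strain N2, fed E. coli OP50 and collected as middle-to-late L4 larvae, the last larval stage. The 2 groups were 25°C and 15°C, with 3 libraries each, and the question was how the temperature of cultivation changes gene expression. Parents of both groups had been kept at 20°C until L4 and laid their eggs at the new temperature. The 15°C parents laid about 40 hours earlier, which was meant to bring the offspring to a like stage. Whether the stages matched was not tested here, so a difference in stage cannot be told apart from an effect of temperature. The labels do not say whether the libraries of a temperature came from separate cultures, so all p values measure the spread between these libraries, which may be technical.

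In this chain, complexes I and II pass electrons from NADH and from succinate to ubiquinone. Complex III passes them on to cytochrome c, and complex IV to oxygen. Complexes I, III and IV pump protons across the inner membrane, and complex V, the ATP synthase, uses the returning protons to make ATP. In worms, several of these genes are known from mutants: loss of gas-1 or mev-1 shortens life and sensitizes worms to oxygen, while a nuo-6 mutation, or RNAi against cyc-1 or cox-5B (also called cco-1), lengthens it. Muscle and the germline are both rich in mitochondria, and some subunits have more than 1 gene in C. elegans.

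Values are FPKM, fragments mapped to a gene relative to transcript length and to all mapped fragments of the library. They summed to between 2663992 and 2776526 in the 25°C libraries, against 2865856 to 3313082 in the 15°C libraries, so the choice of scaling moves every fold change. The table keeps no read counts, and precision therefore rests on the spread between 3 libraries. In whole worms, fewer cells of a type and less RNA per cell cannot be told apart. Germline markers were lower at 25°C in 10 of 10 genes, with summed levels of 669, 1238 and 880 FPKM in the 25°C libraries, against 2262, 1952 and 2922 FPKM in the 15°C libraries. Oocyte markers were lower in 7 of 8 genes, with sums of 880, 1230 and 1093 FPKM at 25°C, against 2269, 2538 and 2763 FPKM at 15°C. No germline or oocyte marker was at 0. Of 7 body muscle markers, 2 were lower and 0 higher, with sums of 2854, 3565 and 3315 FPKM at 25°C, against 3870, 4457 and 4206 FPKM at 15°C. The part of these tissues in the results below was not tested.

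At 25°C, 6 of the 35 genes changed. gas-1 of complex I rose, and 5 genes fell, namely ucr-2.3, sdha-2, cox-15, cyc-2.1 and asg-1 (limma on log2(FPKM + 0.5), adjusted p under 0.05 by Benjamini-Hochberg over all 12996 genes tested). All 35 members reached the filter, an average of 1 FPKM, and none was at 0 in any library. Higher members were 2.86% of the 35, against 18.2% of all genes tested. Lower members were 14.3%, against 21.3% of all genes tested. In either direction the shares were 17.1% of members and 39.5% of all genes. No member passed the rule of a change of more than 2-fold with an adjusted p under 0.01, which 12.5% of all genes tested passed (6.96% higher and 5.59% lower). Before adjustment, p was under 0.05 for 1 higher and 9 lower members, which is 2.86% and 25.7% of members, against 22.9% and 26.9% of all genes. Libraries of 25°C lay wholly above or below those of 15°C in 11 of 35 members, or 31.4%, against 54.7% of all genes tested.

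**Figure D1:**
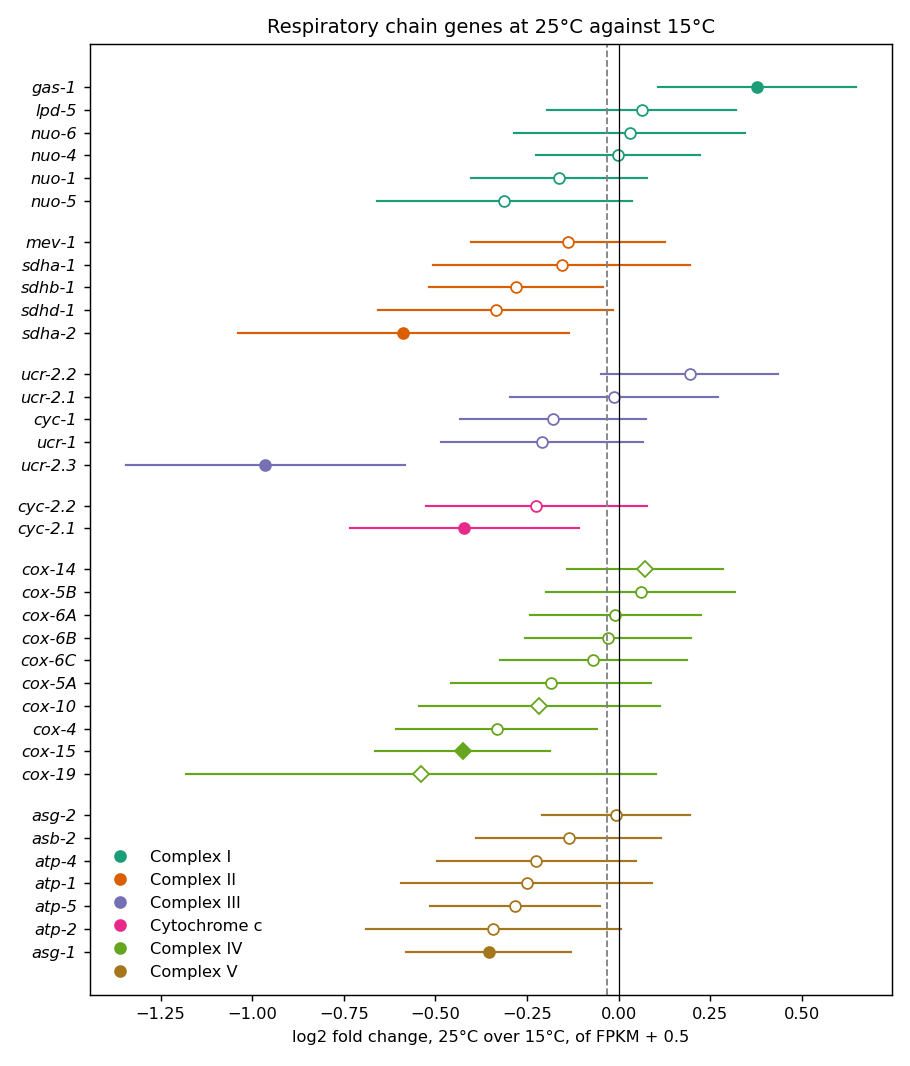
Log2 fold change of each member at 25°C over 15°C (x axis, limma on FPKM + 0.5) with its 95% confidence interval, by complex. Filled symbols have an adjusted p under 0.05, diamonds are assembly factors, and the dashed line is the median of all genes tested (-0.032); only gas-1 is filled to the right of 0, and ucr-2.3 lies farthest to the left.

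The members' log2 fold changes ran between -0.96 and 0.38, with a median of -0.18, against a median of -0.032 over all genes tested. They were below 0 in 29 members and above 0 in 6. The 95% confidence intervals of the members, not adjusted for the number of genes, reached a median of 0.27 to either side on the log2 scale. Smaller changes were not detectable in most members. Some larger ones missed the adjusted threshold too, such as -0.33 for cox-4 (limma adjusted p = 0.058). The side of 0 on which the members lay depended on the scaling. With every library brought to the same FPKM sum, the median of the members was 0.0013 and that of all genes 0.15, and 17 members were below 0 and 18 above. The distance of the members' median from that of all genes was -0.15 under both scalings. With equal sums, gas-1 and ucr-2.2 rose and only ucr-2.3 fell among the members. Together, the 35 members took 1.16%, 1.31% and 1.29% of the summed FPKM in the 25°C libraries, against 1.17%, 1.23% and 1.32% in the 15°C libraries, so that the groups overlapped. With FPKM as deposited, abundant genes as a whole lay on the lower side. Of 2450 genes at 100 FPKM or more on average, 15.1% were higher and 25.7% lower, with a median of -0.13. Of 357 with at least 1000 FPKM, 8.68% were higher and 38.1% lower, with a median of -0.29. Equal sums were not computed for these sets. The 12 members with at least 1000 FPKM had a median of -0.13, and 2 of them fell. The count of lower members changed with single libraries: leaving out either 25°C replicate 1 or 25°C replicate 3 gave 1, and leaving out 15°C replicate 1 gave 3. Calls over all genes fell too: in these 3 leave-outs 14.2%, 12.9% and 15.3% were lower, against 21.3% with all libraries. The count of higher members was 0 when any library other than 15°C replicate 3 was left out. Between 11.9% and 18.4% of all genes were higher in those leave-outs.

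Mean levels over the 6 libraries ran between 13.6 FPKM for cox-10 and 4714 FPKM for cyc-2.1. Subunits of complexes IV and V and cytochrome c were the most abundant, with medians of 2293 FPKM over the 6 complex IV subunits and 1359 FPKM over the 7 genes of complex V. Complexes I, II and III had medians of 374, 244 and 171 FPKM. Across the 35 genes, mean FPKM went with exonic length at a Pearson r of -0.63 and a Spearman rho of -0.61, and genes of 1 library set are not independent replicates. The log2 fold change had correlations of -0.06 and -0.05 with exonic length and of 0.13 and 0.09 with the mean level, on the same measures and genes.

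**Figure D2:**
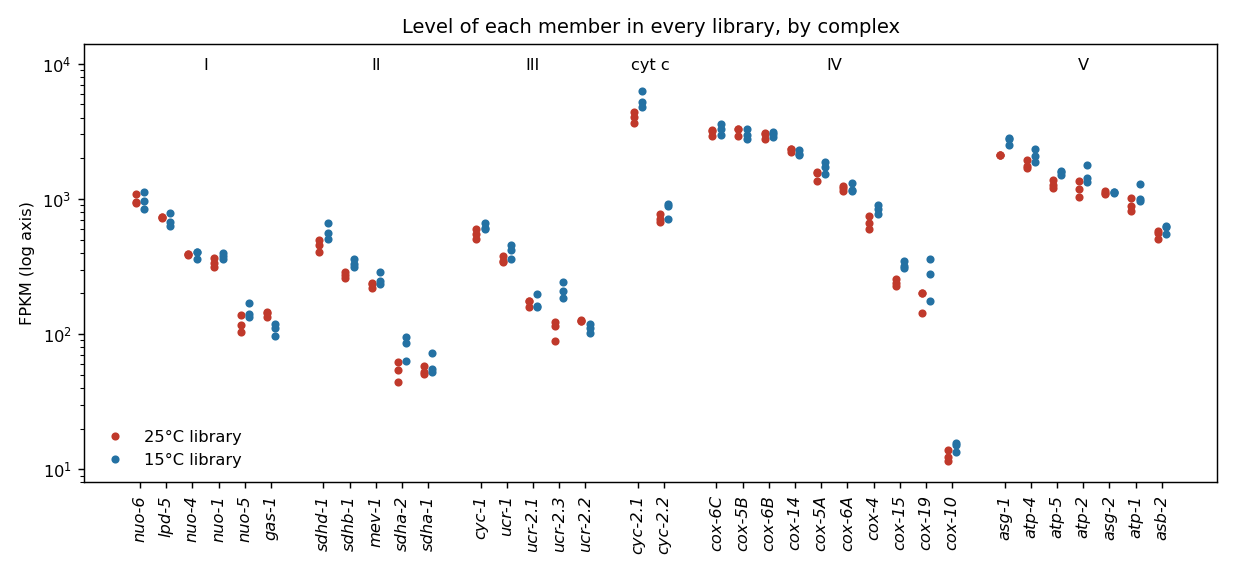
Level of each member in each library (y axis, FPKM on a log axis), with the 3 libraries at 25°C drawn left of the 3 at 15°C and genes ordered within a complex by mean level. Levels span 13.6 FPKM (cox-10) to 4714 FPKM (cyc-2.1), and at most genes the 2 sets of points overlap.

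In complex I, gas-1 rose, and no other member passed the test. It encodes the core subunit next to the ubiquinone site. gas-1 had 134, 145 and 144 FPKM at 25°C, against 96.3, 111 and 119 FPKM at 15°C, with no overlap. The estimated log2 fold change was 0.38 ± 0.12 (SE, n = 3 libraries each, limma adjusted p = 0.037). The gene lies on chromosome X at 15586786 to 15590397 of WBcel235, on the minus strand, and 26 of its exonic bases overlap a gene on the other strand. The call held with equal sums and without 15°C replicate 3 (adjusted p = 0.029), but not without 25°C replicate 1, 2 or 3 (adjusted p = 0.067, 0.101 and 0.130) or without 15°C replicate 1 or 2 (adjusted p = 0.099 and 0.056).

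The most abundant member of complex I was nuo-6, an accessory subunit. It had 1080.3, 934 and 958 FPKM at 25°C, against 961, 1128 and 838 FPKM at 15°C. These overlapped, and the log2 fold change of 0.03 ± 0.13 (SE) had a 95% confidence interval of -0.28 to 0.34. nuo-1, which binds NADH, and nuo-5, an iron-sulfur core subunit, had log2 fold changes of -0.16 and -0.31 with overlapping libraries. The accessory subunits lpd-5 and nuo-4 had 0.06 and -0.0015. Over the 6 members the median was 0.014, with 3 on either side of 0.

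In complex II, which oxidizes succinate and also belongs to the citric acid cycle, all 5 members lay below 0 and 1 fell. That member was sdha-2, a flavoprotein subunit on chromosome I at 10683270 to 10685587. sdha-2 had 44.2, 62.5 and 54.3 FPKM at 25°C, against 85.5, 63.4 and 94.8 FPKM at 15°C. The highest 25°C library and the lowest 15°C library differed by less than 1 FPKM. The log2 fold change was -0.59 ± 0.19 (SE, limma adjusted p = 0.046). The call was lost without 25°C replicate 1 or 3 (adjusted p = 0.134 and 0.105), without 15°C replicate 1 or 3 (adjusted p = 0.121 and 0.118), and with equal sums (log2 fold change -0.40, adjusted p = 0.198).

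The other flavoprotein gene, sdha-1, had 50.7, 57.96 and 52.3 FPKM at 25°C, against 52.8, 55.6 and 72.6 FPKM at 15°C, with overlap. sdhd-1, a membrane anchor and the most abundant member of the complex, had 407, 499 and 456 FPKM at 25°C, against 502, 663 and 560.2 FPKM at 15°C. Its libraries did not overlap, and its log2 fold change of -0.34 ± 0.14 (SE) missed the threshold (limma adjusted p = 0.089). The iron-sulfur subunit sdhb-1 did not overlap either, at a mean of 275 ± 15 FPKM in 25°C worms and 334 ± 22 FPKM in 15°C worms (SD, n = 3 each). mev-1, the cytochrome b anchor, had 219, 239.9 and 236 FPKM at 25°C, against 234.6, 287 and 246 FPKM at 15°C. These overlapped, with a log2 fold change of -0.14 ± 0.11 (SE). With equal sums, 3 of the 5 members lay below 0 and none was called.

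In complex III, ucr-2.3 fell, and it had the largest change of all members. It encodes a core protein of the complex and has a pair of close relatives, ucr-2.1 and ucr-2.2. ucr-2.3 had 89.1, 124 and 114 FPKM at 25°C, against 186, 208 and 244 FPKM at 15°C. Every 25°C library lay well below every 15°C library. Its mean at 25°C was 51.3% of that at 15°C, with a log2 fold change of -0.96 ± 0.16 (SE, limma adjusted p = 0.0045). The gene lies on chromosome III at 879860 to 881458, and 16 of its exonic bases overlap zer-1 on the other strand. It was the one member called under all 16 alternatives, with a log2 fold change between -1.06 and -0.77. It passed the 2-fold rule when 25°C replicate 2 was left out (log2 fold change -1.06, adjusted p = 0.0064).

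ucr-2.1 had 159, 177 and 176 FPKM at 25°C, against 160.03, 161 and 197 FPKM at 15°C, with a log2 fold change of -0.01. ucr-2.2 had 125, 128 and 126 FPKM at 25°C, against 102, 110.5 and 119 FPKM at 15°C. Its libraries did not overlap, but its log2 fold change of 0.19 ± 0.10 (SE) missed the threshold (limma adjusted p = 0.172) except with equal sums or TPM.

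cyc-1, cytochrome c1 and the most abundant of the complex, had 502, 604 and 553 FPKM at 25°C, against 610.4, 599 and 666 FPKM at 15°C. The log2 fold change of cyc-1 was -0.18 ± 0.11 (SE), and that of the core protein gene ucr-1 was -0.21. Both sets of libraries overlapped.

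Cytochrome c, the small carrier between complexes III and IV, has 2 genes in this set. cyc-2.1, on chromosome IV at 4747895 to 4749012, had the highest mean level of all members and fell at 25°C. It had 3665, 4389.5 and 4011 FPKM at 25°C, against 4780.4, 6235 and 5204 FPKM at 15°C, with no overlap. Its log2 fold change was -0.42 ± 0.13 (SE, limma adjusted p = 0.041). The call held without 15°C replicate 1 (adjusted p = 0.041), but not without 25°C replicate 1, 2 or 3 (adjusted p = 0.126, 0.052 and 0.118) or without 15°C replicate 2 or 3 (adjusted p = 0.078 and 0.067). cyc-2.2 had 770.3, 706 and 678 FPKM at 25°C, against 924, 894 and 712 FPKM at 15°C. These overlapped, with a log2 fold change of -0.22 ± 0.13 (SE, adjusted p = 0.201), and without 15°C replicate 3 the gene was called at -0.34 (adjusted p = 0.046).

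In complex IV, none of the 6 subunit genes passed the test, and their median log2 fold change was -0.05. cox-6C, the most abundant, had 2942, 3182 and 3238 FPKM at 25°C, against 2967, 3576 and 3303 FPKM at 15°C. cox-5B had 2900.2, 3284 and 3266 FPKM at 25°C, against 2783, 3298 and 2994 FPKM at 15°C. Both overlapped, with log2 fold changes of -0.07 ± 0.11 and 0.06 ± 0.11 (SE). cox-6A and cox-6B had -0.01 and -0.03, and cox-5A had -0.18. cox-4 was the only subunit gene of the complex whose libraries did not overlap, at 668 ± 73 FPKM in 25°C worms and 839 ± 60 FPKM in 15°C worms (SD, n = 3 each), and its log2 fold change of -0.33 ± 0.12 (SE) missed the threshold (limma adjusted p = 0.058), as it did in all leave-outs but that of 25°C replicate 2 (adjusted p = 0.049).

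Of the 4 assembly factor genes of complex IV, cox-15 fell. Its product acts in the synthesis of heme A, the heme of complex IV. cox-15 had 228, 257 and 239.6 FPKM at 25°C, against 310, 347 and 317 FPKM at 15°C, with no overlap. The log2 fold change was -0.43 ± 0.10 (SE, limma adjusted p = 0.015). The gene lies on chromosome II at 11232756 to 11234952, and 80 of its exonic bases overlap T06D8.2 on the other strand. The call was lost without 25°C replicate 1 or 3 (adjusted p = 0.053 and 0.070), and with equal sums, where the log2 fold change was -0.24 and adjusted p = 0.099. cox-10, which acts in the same heme pathway and had the lowest level of all members, stood at 12.6 ± 1.2 FPKM in 25°C worms and 14.7 ± 1.1 FPKM in 15°C worms (SD, n = 3 each) with overlap. cox-19 had 201, 142 and 202 FPKM at 25°C, against 363, 280.004 and 175 FPKM at 15°C, so that 15°C replicate 3 lay inside the 25°C range. Its log2 fold change of -0.54 ± 0.27 (SE) missed the threshold (limma adjusted p = 0.154), and without 15°C replicate 3 it was -0.83 (adjusted p = 0.025). cox-14 had a log2 fold change of 0.07, but 519 of its 686 exonic bases are shared with Y70G10A.4 on the same strand, so its level is uncertain.

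In complex V, all 7 members lay below 0 and asg-1 fell. asg-1 encodes subunit g of the membrane part and lies on chromosome I at 8692946 to 8693468. It had 2110.1, 2105 and 2121 FPKM at 25°C, against 2799, 2828 and 2489.9 FPKM at 15°C. The 25°C libraries lay close together, with an SD of 8.25 FPKM, and below all 15°C libraries. Its log2 fold change was -0.35 ± 0.10 (SE, limma adjusted p = 0.024). The call held without 15°C replicate 2 or 3 (adjusted p = 0.046 and 0.020), but not without 25°C replicate 1, 2 or 3 (adjusted p = 0.067, 0.070 and 0.097), without 15°C replicate 1 (adjusted p = 0.070) or with equal sums (log2 fold change -0.17, adjusted p = 0.125).

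asg-2, the second gene for subunit g, had 1093, 1111 and 1136 FPKM at 25°C, against 1111, 1126 and 1121 FPKM at 15°C, with a log2 fold change of -0.01 ± 0.09 (SE). atp-2, the beta subunit of the catalytic head, had 1040.2, 1364 and 1189.6 FPKM at 25°C, against 1441, 1346 and 1773 FPKM at 15°C. These overlapped, with a log2 fold change of -0.34 ± 0.15 (SE, limma adjusted p = 0.106). The alpha subunit gene atp-1 had -0.25, and the stalk genes atp-4, atp-5 and asb-2 had -0.22, -0.28 and -0.14. Of these, only atp-5 had libraries that did not overlap, at 1285 ± 97 FPKM in 25°C worms and 1561 ± 50.4 FPKM in 15°C worms (SD, n = 3 each). With equal sums, 5 of the 7 genes lay below 0 and none was called.

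**Figure D3:**
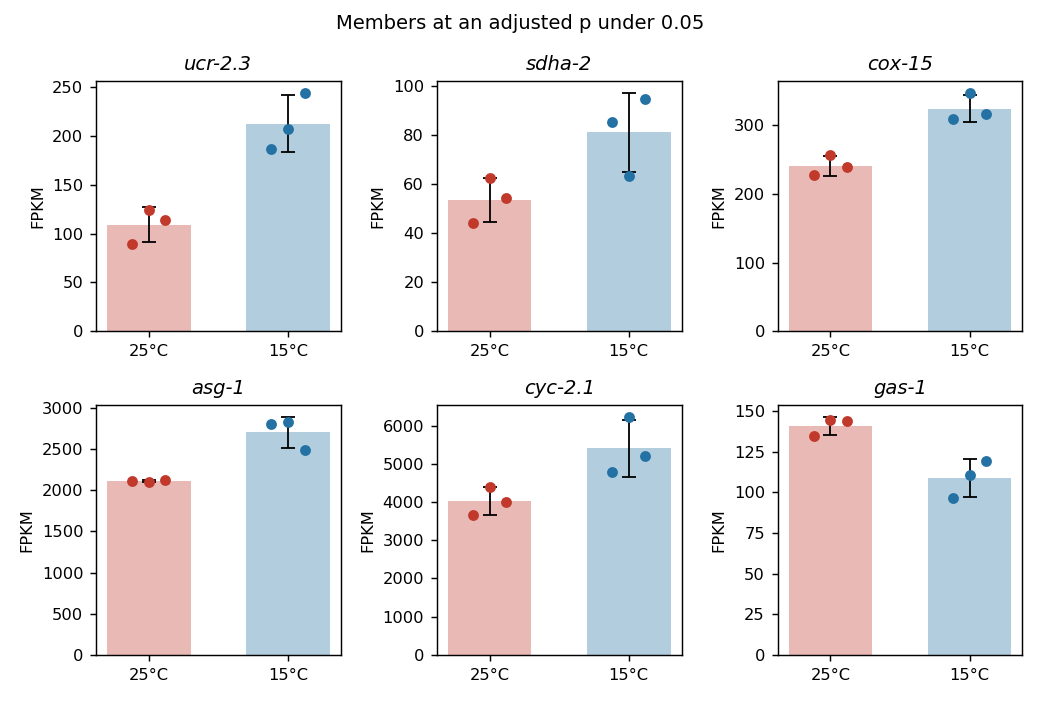
FPKM of the 6 members with an adjusted p under 0.05, with points for the libraries (25°C left, 15°C right), bars for the mean of 3 and error bars for the SD. The 25°C points lie below the 15°C points for ucr-2.3, sdha-2, cox-15, asg-1 and cyc-2.1 and above them for gas-1.

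Some subunits are encoded by several genes, and the share of 1 gene in the summed FPKM of its set does not depend on how libraries are scaled. nduf-2.2, a second gene for the subunit that gas-1 encodes, is not a member by name. It fell at 25°C, with 59.3, 81.6 and 76.1 FPKM at 25°C, against 109, 96.02 and 137 FPKM at 15°C (log2 fold change -0.65 ± 0.18, SE, limma adjusted p = 0.025). Without 25°C replicate 1 or 3 the adjusted p was 0.074 and 0.059, and without 15°C replicate 1 or 3 it was 0.058 in both cases. With equal sums it was 0.126. Its share of the sum with gas-1 was 30.6%, 36.1% and 34.6% at 25°C, against 52.99%, 46.4% and 53.44% at 15°C. At 25°C gas-1 was thus the larger contributor in every library, whereas at 15°C nduf-2.2 exceeded it in replicates 1 and 3.

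The share of ucr-2.3 among the ucr-2 genes was 23.9%, 28.95% and 27.5% at 25°C, against 41.5%, 43.3% and 43.6% at 15°C. It was the largest of the set in all 15°C libraries and the smallest in all 25°C libraries. ucr-2.1 took 42.02 ± 0.69% at 25°C and 34.8 ± 1.1% at 15°C, and ucr-2.2 took 31.2 ± 2.0% at 25°C and 22.4 ± 0.99% at 15°C (SD, n = 3 each). The share of sdha-2 in its sum with sdha-1 was 46.6%, 51.9% and 50.9% at 25°C, against 61.8%, 53.3% and 56.6% at 15°C. The share of asg-1 in its sum with asg-2 was 65.9%, 65.5% and 65.1% at 25°C, against 71.6%, 71.5% and 68.95% at 15°C. For cytochrome c, the share of cyc-2.2 was 17.4%, 13.8% and 14.5% at 25°C, against 16.2%, 12.5% and 12.03% at 15°C, with overlap. In 6 of the 7 shares compared, the temperatures were apart in every library, and each of these had the smallest p that 3 against 3 libraries allow (exact two-sided permutation test, p = 0.10, 0.117 after Benjamini-Hochberg adjustment over the 7), so none could pass 0.05. For cyc-2.2 the exact permutation p was 0.40. The ucr-2 shares are not independent, since they add up to 100%.

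**Figure D4:**
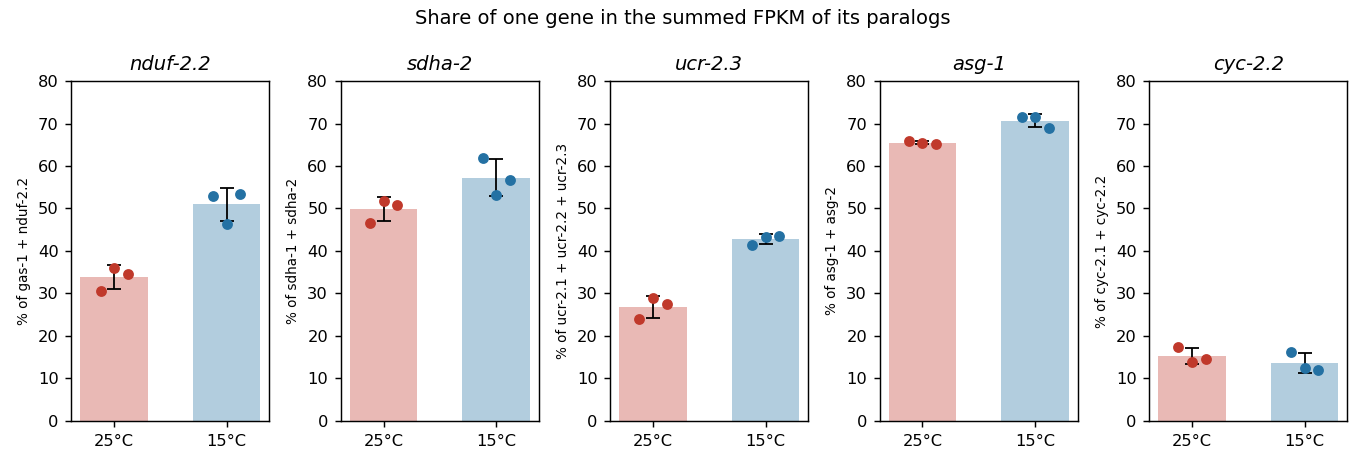
Share of 1 gene in the summed FPKM of the genes named on each y axis (percent), with points for the libraries (25°C left, 15°C right), bars for the mean of 3 and error bars for the SD. The points of the temperatures are apart in the first 4 panels, widest for nduf-2.2 and ucr-2.3, and overlap for cyc-2.2.

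The sets with shifted shares have in common that each holds an X-linked and an autosomal gene. This was noticed after the values were seen, so no test is given. gas-1, sdha-1, asg-2, ucr-2.1 and ucr-2.2 are on chromosome X, while nduf-2.2 and ucr-2.3 are on III and sdha-2 and asg-1 on I. In all 4 sets the X-linked gene had the higher log2 fold change: 0.38 for gas-1 and -0.65 for nduf-2.2, -0.16 for sdha-1 and -0.59 for sdha-2, -0.01 for asg-2 and -0.35 for asg-1, and -0.01 for ucr-2.1 and 0.19 for ucr-2.2 beside -0.96 for ucr-2.3. Both cytochrome c genes are autosomal. Of the 6 members on X, 1 rose and 0 fell, with a median of -0.01, and of the 29 on autosomes 0 rose and 5 fell, with a median of -0.22. Over all genes tested, 22.2% of 1765 X-linked genes were higher and 10.6% lower, with a median of 0.17, against 17.5% and 23.2% of 10087 autosomal genes, with a median of -0.071. With equal sums, the medians were 0.34 for all X-linked and 0.11 for all autosomal genes, and 0.18 and -0.04 for the members. The X chromosome is known to be largely silent in the germ cells of C. elegans. Of the 11 genes of shared subunits, nduf-2.2 and sdha-2 had the same order over the libraries of each temperature as the summed germline markers, and ucr-2.3 and asg-1 did not. So did 6 of the 35 members (17.1%; atp-1, atp-2, cox-10, cyc-1, nuo-5 and sdha-2), of which only sdha-2 was called, against 11.3% of all genes tested. The part of the germline in these shares was not tested.

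Other genes of the same pathway were taken from lists written by complex. Of 17 other complex I genes in the table, 1 rose and 1 fell, against 18.2% higher and 21.3% lower over all genes tested. Their median log2 fold change was 0.15, and 12 lay above 0. The one that fell was nduf-2.2. The one that rose was D2030.4, named ndub-7 in RefSeq, with 1144, 1089 and 1049 FPKM at 25°C, against 933, 876 and 842 FPKM at 15°C (log2 fold change 0.31 ± 0.09, SE, limma adjusted p = 0.037). It lost its call whenever a library was left out (adjusted p between 0.052 and 0.111). The calls among these genes turned on the scaling: with equal sums 11 of these 17 genes were higher and 0 lower, with a median of 0.33, beside 25.5% higher of all genes. Together with the members, complex I held 23 genes with a median of 0.12.

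Neither the 4 other complex III genes nor the 6 other complex V genes gave a call in either direction, with medians of -0.04 and -0.18. With equal sums, 1 of these complex V genes was higher, beside 25.5% of all genes. The medians were then 0.15 for the complex III genes and 0.01 for the complex V genes. Together with the members, complex V held 13 genes with a median of -0.21, of which 12 lay below 0 and 8 with equal sums. hpo-18, the epsilon subunit of the ATP synthase, had 268824, 219349 and 223970 FPKM at 25°C, against 311959, 279115 and 234300 FPKM at 15°C. These overlapped, and as FPKM they lie far above every other gene of the complex. The gene has 290 exonic bases, and FPKM is relative to length, so its level is uncertain. Together with the ribosomal protein gene rpl-39, of 236 exonic bases, hpo-18 took 16.97% to 20.3% of the FPKM sum at 25°C, against 17.2% to 20.7% at 15°C. Leaving both out of the equal sums gave a median of -0.0037 for the members.

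Among all genes tested 21.3% were lower, which is the share to set beside the lists that follow. Of 5 genes for mitochondrial carriers and the inhibitor of the ATP synthase, 1 fell, the ADP/ATP carrier gene ant-1.1. It had 3796, 4621 and 4211 FPKM at 25°C, against 5456, 6313 and 6453 FPKM at 15°C (log2 fold change -0.53 ± 0.12, SE, limma adjusted p = 0.013). Without 25°C replicate 3 the adjusted p was 0.053, and with equal sums it was 0.070 (log2 fold change -0.34). The inhibitor gene mai-2 had a log2 fold change of 0.05. Of 6 assembly factors outside the cox names, sft-1 fell, with 12.9, 16.6 and 14.8 FPKM at 25°C, against 23.6, 26.7 and 21.9 FPKM at 15°C (log2 fold change -0.69 ± 0.15, SE, limma adjusted p = 0.010). Of 2 ubiquinone synthesis genes, coq-2 fell, with 39.9, 44.7 and 48.7 FPKM at 25°C, against 55.8, 57.6 and 61.2 FPKM at 15°C (log2 fold change -0.39 ± 0.12, SE, limma adjusted p = 0.037). coq-2 lost its call whenever a library was left out (adjusted p between 0.061 and 0.113), and with equal sums (adjusted p = 0.292).

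**Figure D5:**
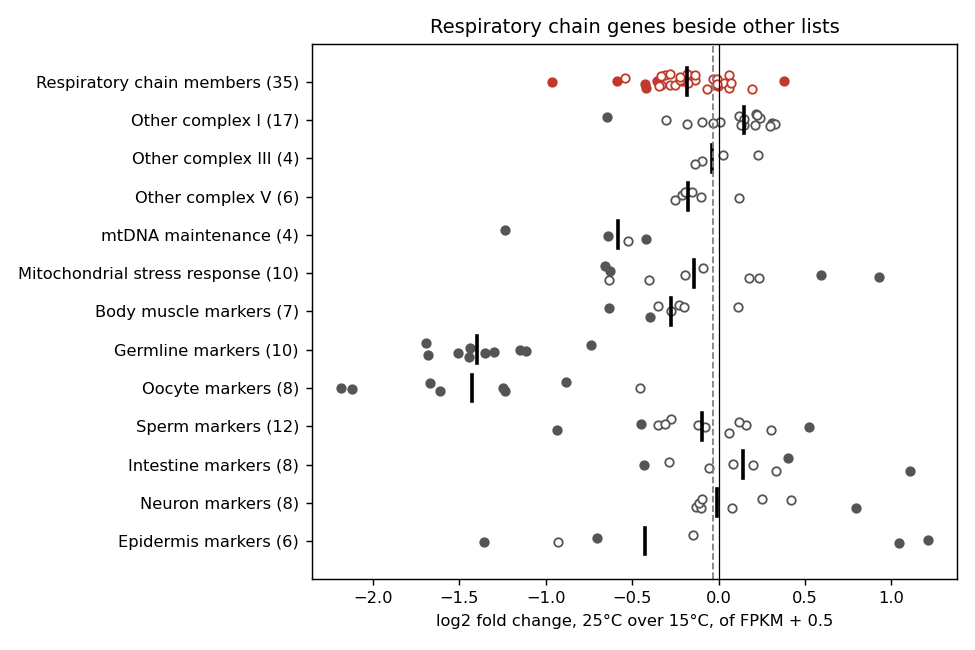
Log2 fold change at 25°C over 15°C (x axis, FPKM + 0.5) of the members and of other lists, with the number of genes tested in brackets. Points are genes, filled at an adjusted p under 0.05, black ticks are medians and the dashed line is the median of all genes tested; the members lie near 0 (median -0.18), and germline and oocyte markers lie far to the left (medians -1.396 and -1.43).

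Markers of the remaining tissues went in both directions or gave few calls, where 18.2% of all genes tested were higher and 21.3% lower. Of 12 sperm markers, 1 was higher and 2 lower, with a median of -0.10. Of 8 intestine markers 2 were higher and 1 lower, and of 8 neuron markers 1 was higher and 0 lower, with medians of 0.14 and -0.0085. Of 6 epidermis markers tested, 2 were higher and 2 lower, with a median of -0.42. With equal sums, the medians were 0.09 for sperm, 0.33 for intestine, 0.17 for neuron and -0.24 for epidermis markers, beside 0.15 for all genes.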

How the data were processed

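Whole L4 worms of N2 gave 3 RNA-seq libraries at 25°C and 3 at 15°C, assigned by the sample records. A stranded mRNA kit was used, with paired ends of 150 bases. Per the submitters' processing notes, reads were aligned to WBcel235 with TopHat2 2.0.6 and analyzed with Cufflinks, and the deposited table holds 1 FPKM per gene and library. The strand setting of the quantification is not given in the sources used here. Depth is unknown: the lowest value above 0 is 9.8e-258, and no step size of single reads was found.

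Genes averaging 1 FPKM or more were compared on log2(FPKM + 0.5) with limma 3.58.1 (R 4.3.3, intensity trend, no covariate, two-sided), with Benjamini-Hochberg adjustment over all genes tested. This step was tested on simulated data. Shares within sets of related genes were compared by exact permutation tests. Exonic lengths and overlaps come from Ensembl release 115 of WBcel235, which matched all 35 members, and RefSeq names from its gene table. Tables were handled with pandas 2.3.3 and numpy 2.4.6 in Python 3.11.15, and plots drawn with matplotlib 3.10.9. No sequences were used here.

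Values in every library were given for members past the 2-fold rule, the largest called rise and fall in each complex, genes of a shared subunit, genes known from respiratory mutants and the most abundant member of each complex, and, outside the members, for the largest called rise and fall of each list. Other genes given library by library, such as cox-19 and hpo-18, were chosen after their values were seen. The members and lists were chosen with earlier results of these data known.

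Alternatives were median-ratio scaling, equal sums, TPM, no filter or one at 5 FPKM, pseudocounts of 0.1 and 1, no trend, the replicate number as a block and each library left out. Equal sums without rpl-39 and hpo-18 were added after the data were seen.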

Additional observations from a re-analysis of the deposited data

How the results depend on the processing

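The results were recomputed under 16 alternatives. Besides the 1 higher and 5 lower members reported, 2 were higher with equal sums, with equal sums without rpl-39 and hpo-18 and with TPM, and 0 without the trend. Lower members numbered 3 with no filter, 1 with equal sums, 1 with equal sums without those genes, 1 with TPM and 2 without the trend. Leaving out each library gave 0 to 1 higher members, 1 to 5 lower members and 0 to 1 past the 2-fold rule. The members' median log2 fold change was 0.0013 with equal sums, -0.0037 without those genes and 0.0013 with TPM. These scalings multiply all genes of a library alike, and which scaling is the right one was not tested. The median minus that of all genes stayed between -0.19 and -0.094.

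With the replicate number as a block, 0 members were higher and 6 lower, with cox-4 and sdhd-1 added and gas-1 and sdha-2 lost. Over all genes, 15.4% were higher and 17.7% lower with the block. Same-numbered libraries did not deviate together (correlations of -0.035, -0.10 and -0.050), so the numbers were not taken to pair libraries. The cause of the differing calls was not tested. Precision is limited by 3 libraries per temperature and unknown depth.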

Other observations

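Of 4 genes that maintain or read the mitochondrial genome, 3 fell at 25°C and 0 rose, with a median log2 fold change of -0.58, against 21.3% of all genes tested that were lower. polg-1, the mitochondrial DNA polymerase, had 1.69, 2.98 and 2.46 FPKM at 25°C, against 6.07, 4.76 and 8.07 FPKM at 15°C, with no overlap (log2 fold change -1.24 ± 0.26, SE, limma adjusted p = 0.010). hmg-5, which packages mitochondrial DNA, had 106, 94.5 and 106 FPKM at 25°C, against 165, 188 and 131 FPKM at 15°C (log2 fold change -0.64 ± 0.15, SE). mtss-1, the single-stranded DNA binding protein of mitochondria, also fell, at a log2 fold change of -0.42 ± 0.13 (SE, limma adjusted p = 0.038), but lost its call when any library other than 15°C replicate 3 was left out (adjusted p between 0.051 and 0.117). rpom-1, the mitochondrial RNA polymerase, did not overlap between the temperatures and had a log2 fold change of -0.52 ± 0.21 (SE, limma adjusted p = 0.085), and without 15°C replicate 2 it was -0.72 (adjusted p = 0.022). polg-1 and hmg-5 were the genes called with equal sums, and all 4 lay below 0 there.

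Genes of the mitochondrial unfolded protein response, in which the factor ATFS-1 raises chaperones and proteases when import into mitochondria fails, numbered 10 here. Of these 2 rose and 2 fell, near the 18.2% and 21.3% of all genes tested, and with equal sums 3 were higher and 1 lower. atfs-1 itself had 65.6, 67.4 and 64.1 FPKM at 25°C, against 28.5, 41.4 and 34.2 FPKM at 15°C, with no overlap (log2 fold change 0.93 ± 0.15, SE, limma adjusted p = 0.0040). The transporter gene haf-1 rose at a low level, at 2.73 ± 0.19 FPKM in 25°C worms and 1.65 ± 0.23 FPKM in 15°C worms (SD, n = 3 each, limma adjusted p = 0.049), and lost its call whenever a library was left out (adjusted p between 0.0502 and 0.166). The protease gene clpp-1 had 110.1, 99.6 and 98.2 FPKM at 25°C, against 158, 192 and 140.1 FPKM at 15°C (log2 fold change -0.66 ± 0.14, SE, limma adjusted p = 0.0099). The chaperone gene hsp-60 fell as well, with 155, 227 and 181 FPKM at 25°C, against 276, 253 and 337 FPKM at 15°C (log2 fold change -0.63 ± 0.17, SE, limma adjusted p = 0.026). Its call was lost without 25°C replicate 1 or 3 (adjusted p = 0.077 and 0.0798), without 15°C replicate 1 or 3 (adjusted p = 0.058 and 0.066) and with equal sums (adjusted p = 0.124). The chaperone gene hsp-6 had 130.5, 210.4 and 155 FPKM at 25°C, against 266, 185 and 326 FPKM at 15°C, which overlapped (log2 fold change -0.64 ± 0.25, SE, limma adjusted p = 0.078), and it was called without 25°C replicate 2 (adjusted p = 0.042) or 15°C replicate 2 (adjusted p = 0.026).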
